A study of Mus musculus with 6 samples.

Results

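Stab1, Stab2, Lyve1, Clec4g, Oit3, Dnase1l3, Gpr182 and Mrc1 are 8 genes by which liver sinusoidal endothelial cells (LSECs) are known, and they were followed here by symbol, as a list drawn up by name, among the 60832 genes of the count table. RNA-seq had been carried out on 6 libraries of mouse cells taken from HCT116 CRCLM xenografts, of which 3 were bevacizumab-sensitive and 3 bevacizumab-resistant, where CRCLM stands for colorectal cancer liver metastasis and HCT116 is a human colorectal cancer cell line. The comparison asked how the endothelial cells that line the liver sinusoids differed between tumours labelled as sensitive and tumours labelled as resistant to bevacizumab, an antibody against human VEGF-A. According to the methods of the study, tumour cells were placed in the left main lobe of the liver, mice received bevacizumab or, in the vehicle group, IgG, and resistance was acquired under prolonged dosing. The methods name male BALB/c-Nu mice, an athymic strain that lacks most T cells, as xenograft hosts, and the labels give no strain. The labels do not say whether the sensitive libraries came from vehicle-treated mice, and they give neither the age of the mice nor whether mice were pooled. The methods give the age of these mice as a range in weeks, but not their age when the cells were collected. In both groups the cells were collected with beads against CD146, a surface protein of endothelial cells, and labelled as primary LSECs cultured for 24 h. Nothing in the labels states that the 3 libraries of a group came from separate mice, so the p-values measure the spread between these libraries, which may be technical.

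LSECs form the fenestrated wall of the liver capillaries and, together with the Kupffer cells (the resident macrophages of the liver), clear the blood of waste. They bind hyaluronan, modified lipoproteins, collagen fragments and glycoproteins with exposed sugars through the stabilins and the mannose receptor, take them up by clathrin-mediated endocytosis and break them down in lysosomes. In culture LSECs are known to lose these receptors and their fenestrae quickly.

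The libraries held between 17599326 and 20726684 counted reads, and 3 counts, taken as the limit of detection, corresponded to 0.145 to 0.170 CPM. CPM is edgeR's depth-scaled count, the count divided by the library size after that size was scaled with the trimmed mean of M values, a method that sets the bulk of the genes equal between libraries. Sensitive replicate 2 stood apart, with a correlation of log2 CPM over genes of 0.860 to 0.901 with the other 5 libraries, against 0.954 to 0.974 among those 5. The methods describe a check of the bead-isolated cells by flow cytometry for CD146, with a high purity. Mcam, which encodes CD146, had 6 to 79 counts per library. The 18 genes of a macrophage and Kupffer cell list summed to 23750 to 42860 CPM in the sensitive and 27790 to 31300 CPM in the resistant libraries, and none of them was at 0, whereas 18 pan-endothelial genes summed to 358 to 562.9 and 91.8 to 457.8 CPM. Clec4f, the lectin that defines mouse Kupffer cells, had 1777 to 5567 CPM, and Cdh5, the cadherin of endothelial junctions, had 18.3 to 230.1 CPM. Macrophage genes thus summed far higher than endothelial genes in libraries labelled as LSECs, and the part of macrophage RNA in the values of Mrc1 and Stab1, which macrophages also express, was not tested. In bulk RNA, fewer cells of a type and less RNA per cell cannot be told apart.

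Promoters were looked up to show the sequence next to the start of these genes, and RefSeq (GRCm38.p6) had an entry for 4 of the 8, namely Stab1, Stab2, Clec4g and Mrc1. The stretches below run 5′ to 3′ on the gene's strand up to the base before the gene start, chr14:31168642-31168891 (minus strand), chr10:87008026-87008192 (minus), chr8:3720652-3720901 (minus) and chr2:14229164-14229391 (plus). Capitals mark matches to the searched motifs.
Stab1: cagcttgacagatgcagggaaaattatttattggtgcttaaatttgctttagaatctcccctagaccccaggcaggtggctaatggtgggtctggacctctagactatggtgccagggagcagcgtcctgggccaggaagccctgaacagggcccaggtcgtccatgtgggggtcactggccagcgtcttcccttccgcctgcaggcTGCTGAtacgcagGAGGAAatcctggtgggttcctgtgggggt
Stab2: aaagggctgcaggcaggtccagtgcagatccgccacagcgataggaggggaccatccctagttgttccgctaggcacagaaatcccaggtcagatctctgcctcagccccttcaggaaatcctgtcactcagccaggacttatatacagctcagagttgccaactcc
Clec4g: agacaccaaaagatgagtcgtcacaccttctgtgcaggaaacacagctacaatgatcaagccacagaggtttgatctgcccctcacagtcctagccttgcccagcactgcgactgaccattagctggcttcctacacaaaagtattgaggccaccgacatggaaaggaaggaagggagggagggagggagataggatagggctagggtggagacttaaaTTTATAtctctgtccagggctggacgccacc
Mrc1: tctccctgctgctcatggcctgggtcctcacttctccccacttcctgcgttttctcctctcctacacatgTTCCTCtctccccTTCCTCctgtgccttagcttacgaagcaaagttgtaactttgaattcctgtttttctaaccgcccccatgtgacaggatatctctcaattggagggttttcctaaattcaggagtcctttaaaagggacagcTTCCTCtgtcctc
The motifs were GATAA (the core bound by GATA factors), GAGGAA (a core bound by PU.1, a factor of myeloid cells), TGCTGA (a MAF half-site) and TATAAA (the TATA box), each searched on both strands over the 250 bases before the RefSeq start, where no match overlapped another. For Stab1 and Clec4g that start is the gene start of GENCODE M21, so the searched window is the printed stretch. For Mrc1 the last 22 and for Stab2 the last 83 of the 250 bases lie past the GENCODE gene start and are not printed. Of 32851 promoters in the RefSeq table, 22.6% held GATAA, 23.3% GAGGAA, 16.1% TGCTGA and 12.4% TATAAA in a window of the same length. Stab1 held TGCTGA 43 to 38 bases and GAGGAA 30 to 25 bases before the RefSeq start. Mrc1 held the reverse complement of GAGGAA at 3 places, 180 to 175, 167 to 162 and 35 to 30 bases before the RefSeq start, which lies 22 bases past the end of the printed stretch. Clec4g held the reverse complement of TATAAA 31 to 26 bases before the RefSeq start. Stab2 held none of the 4 motifs in its 250 bases, of which 167 are printed, and GATAA was in none of the 4 windows. These matches describe letters only.

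No member of the list passed the test between the groups. edgeR's quasi-likelihood test, with p-values adjusted by the Benjamini-Hochberg method over all 15474 genes tested, called 0 of the 8 genes and 0 genes in all (0%), with a smallest adjusted p of 0.940 over the whole table. All 8 genes passed the filter on low counts. Before adjustment, 0 of the 8 had a p under 0.05, where 3.08% of all genes did in either direction and 2.54% did with a lower level in the resistant group. The sensitive and resistant libraries overlapped for all 8 genes, where 9.02% of all genes did not overlap in either direction and 4.38% did not overlap and were lower in the resistant group. By fold change 7 of the 8 genes were lower and 1 was higher in the resistant group, with a median log2 fold change of -0.39, beside 0.0078 over all genes tested, of which 7855 were higher and 7619 lower.

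**Figure D1:**
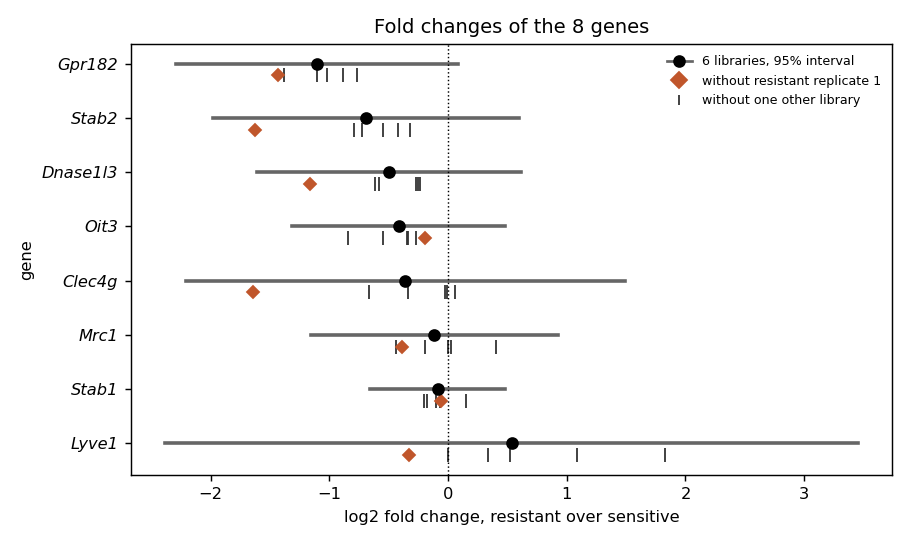
Log2 fold change (x axis, resistant over sensitive) of the 8 genes (y axis), as points for all 6 libraries with 95% intervals, ticks with 1 library left out and diamonds without resistant replicate 1. All 8 intervals cross 0, and the diamonds of Stab2 at -1.63 and Clec4g at -1.64 lie far below their points.

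The stabilins are large scavenger receptors with fasciclin and EGF-like domains. Stab1 (chr14:31139013-31168641, minus strand, GRCm38), which internalizes modified lipoproteins and the matrix protein SPARC, had 496, 528 and 778 CPM in the sensitive and 550.3, 560.3 and 585 CPM in the resistant libraries. Only sensitive replicate 3 stood above the others, and the 3 resistant libraries lay within the range of the sensitive group. The means were 601 ± 154 and 565 ± 18.0 CPM (SD, n = 3 each), with a log2 fold change of -0.09 (SE 0.24, 95% interval -0.65 to 0.48, adjusted p = 0.954 by edgeR), whose sign flipped under 3 of the 16 alternative settings. Stab2 (chr10:86841198-87008025, minus strand), the main hyaluronan clearance receptor of the sinusoid, had 104.5, 94.8 and 129 CPM in the sensitive and 133, 29.6 and 40.9 CPM in the resistant libraries. Resistant replicate 1 was the highest of all 6 libraries, while the other resistant libraries were the lowest. The means were 109.5 ± 17.7 and 67.8 ± 56.7 CPM (SD, n = 3 each), and the log2 fold change was -0.69 (SE 0.55, 95% interval -1.98 to 0.60, adjusted p = 0.940 by edgeR). The coefficient of variation of Stab2 was 16.2% in the sensitive and 83.6% in the resistant libraries, and that of Stab1 was 25.7% and 3.19%.

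Mrc1 (chr2:14229392-14332057, plus strand) encodes the mannose receptor, which takes up mannose-ended glycoproteins and collagen chains. It had 663, 382 and 1199 CPM in the sensitive and 934, 557 and 578 CPM in the resistant libraries. Sensitive replicate 3 was the highest and sensitive replicate 2 the lowest, so that the sensitive group spanned the resistant one. The means were 748 ± 415 and 689.8 ± 212 CPM (SD, n = 3 each) with a log2 fold change of -0.12 (SE 0.44, 95% interval -1.16 to 0.92, adjusted p = 0.967 by edgeR), whose sign flipped under 6 of 16 alternatives. Together Mrc1 and Stab1 made up 78.8 to 95.1% of the summed CPM of the 8 genes, a share not scaled by gene length, in which longer genes weigh more. That sum was 1352, 1042 and 2331 CPM in the sensitive and 1885, 1175 and 1347 CPM in the resistant libraries, a log2 ratio of group means of -0.10. Without Mrc1 and Stab1 it was 193, 131 and 353 CPM in the sensitive and 400.4, 57.4 and 183 CPM in the resistant libraries, and the groups overlapped with and without those genes.

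Lyve1 (chr7:110850607-110863239, minus strand), a hyaluronan-binding membrane protein of sinusoidal and lymphatic endothelium and of some macrophages, was the most variable gene of the list. It had 61.4, 8.76 and 188 CPM in the sensitive and 238, 8.58 and 127 CPM in the resistant libraries. A library near 9 CPM was present in each group (replicate 2 in both), and the highest library had 27.7 times the level of the lowest. The log2 fold change was 0.54 (SE 1.24, 95% interval -2.38 to 3.45, adjusted p = 0.948 by edgeR), and its sign flipped under 3 of 16 alternatives. The biological coefficient of variation of Lyve1, edgeR's estimate of the spread between libraries beyond counting error, was 96.4%, higher than that of 97.9% of the genes tested and beside a common value of 42.2%. Cdh5, at 48.0 and 18.3 CPM, was also lowest in the 2 replicate 2 libraries, against 183 to 230.1 CPM in the other libraries. Pecam1 had its lowest levels there too. The summed CPM of the pan-endothelial list, which includes both genes, was also lowest there, at 358 and 91.8, against 444.4 to 562.9 in the other libraries. The median FPKM of that list (counts scaled by gene length and library total) did not follow. It was highest in sensitive replicate 2, at 2.72, and lowest in resistant replicate 2, at 0.270. Whether the endothelial share of RNA had a part in the spread of Lyve1 was not tested.

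**Figure D2:**
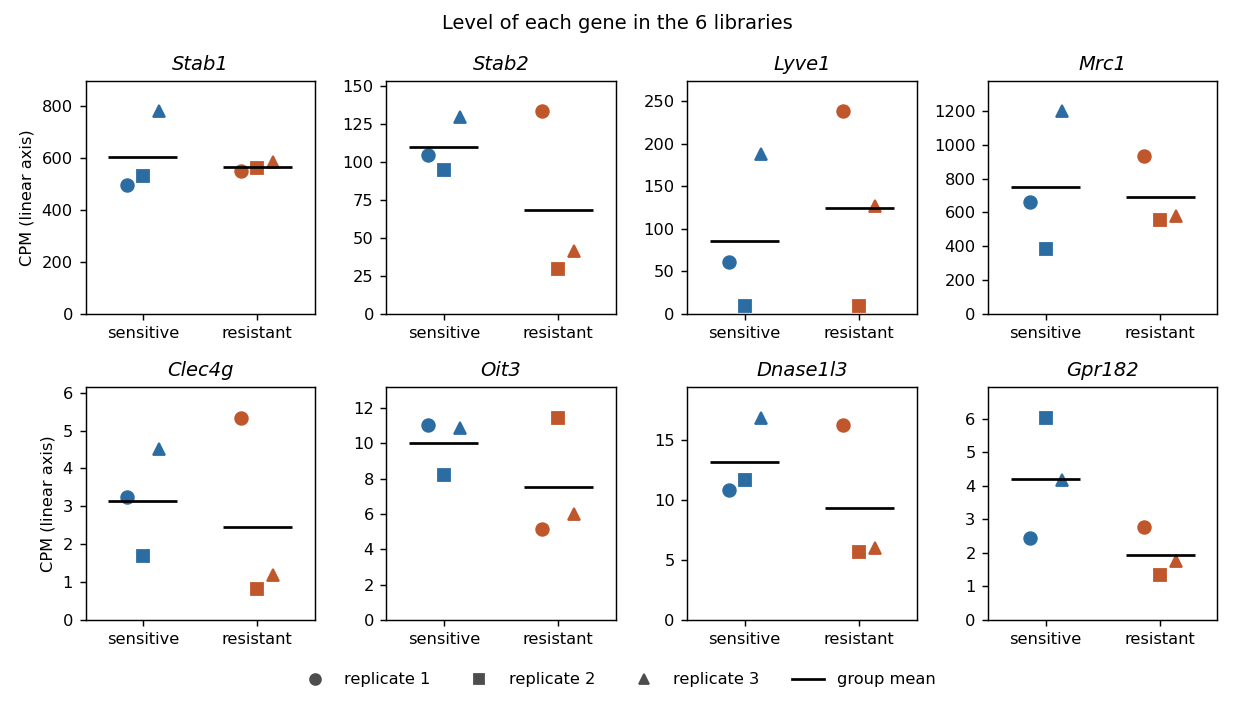
CPM of the 8 genes on linear axes that start at 0 (y axis), by group (x axis), with a point for each library and a line at each group mean. The groups overlap for every gene, and Lyve1 shows a low library in each group, at 8.76 and 8.58 CPM.

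Clec4g (chr8:3707064-3720651, minus strand) encodes LSECtin, a C-type lectin of sinusoidal endothelium that binds glycans and T cells. It had 68, 26 and 92 counts in the sensitive and 118, 16 and 23 counts in the resistant libraries, or 3.25, 1.69 and 4.50 against 5.35, 0.822 and 1.18 CPM. Resistant replicate 1 was again the highest and the other resistant libraries were the lowest. The log2 fold change was -0.36 (SE 0.78, 95% interval -2.21 to 1.49, adjusted p = 0.944 by edgeR), with a flipped sign under 1 of 16 alternatives. Dnase1l3 (chr14:7964533-7994573, minus strand), a secreted nuclease that digests DNA in chromatin and in particles in the blood, had 10.8, 11.7 and 16.8 CPM in the sensitive and 16.2, 5.65 and 5.95 CPM in the resistant libraries. It followed the order of Stab2 and Clec4g in the resistant group, where replicate 1 lay among the sensitive libraries and replicates 2 and 3 lay below all of them. The log2 fold change was -0.50 (SE 0.47, 95% interval -1.61 to 0.62, adjusted p = 0.940 by edgeR).

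Gpr182 (chr10:127747276-127751732, minus strand), an atypical chemokine receptor that takes up chemokines without G protein signalling, had 2.44, 6.04 and 4.16 CPM in the sensitive and 2.76, 1.34 and 1.74 CPM in the resistant libraries, from 26 to 93 counts. Resistant replicate 1 lay just above sensitive replicate 1, and this was the one overlap between the groups. The means of 4.21 ± 1.80 and 1.95 ± 0.736 CPM (SD, n = 3 each) gave the list's largest shift, a log2 fold change of -1.11 (SE 0.50, 95% interval -2.29 to 0.082, unadjusted p = 0.0636, adjusted p = 0.940 by edgeR). Oit3 (chr10:59422958-59441778, minus strand), a secreted protein with a zona pellucida domain, had 11.1, 8.18 and 10.9 CPM in the sensitive and 5.12, 11.5 and 5.997 CPM in the resistant libraries. Here resistant replicate 2 was the highest and replicates 1 and 3 were the lowest, unlike in Stab2, Clec4g and Dnase1l3. The log2 fold change was -0.42 (SE 0.38, 95% interval -1.31 to 0.48, adjusted p = 0.940 by edgeR). Zbtb39 lies across Gpr182 on the opposite strand with 128 to 470 counts, and Nt5dc2 lies across Stab1 with 468 to 1793 counts. The library kit is not stated to keep strand, so reads in the shared stretches cannot be told apart.

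Several of these fold changes moved with single libraries, in both directions. Stab2 and Dnase1l3 were closer to 0 without resistant replicate 2 or 3, with log2 fold changes of -0.32 and -0.42 for Stab2 and of -0.23 and -0.25 for Dnase1l3. The median of the 8 genes was -0.15 without resistant replicate 2 (3 higher, 5 lower), -0.18 without resistant replicate 3 (2 higher, 6 lower) and -0.14 without sensitive replicate 3 (3 higher, 5 lower), and it was -0.57 without sensitive replicate 2 (all 8 lower). Without resistant replicate 1, 4 of the 8 genes had an unadjusted p under 0.05, where 3.91% of all genes did, and the same 4 did not overlap between the groups and were lower in the resistant one, where 11.2% of all genes were. These were Stab2 with a log2 fold change of -1.63 (unadjusted p = 0.00140), Clec4g with -1.64 (unadjusted p = 0.0447), Dnase1l3 with -1.17 (unadjusted p = 0.0174) and Gpr182 with -1.44 (unadjusted p = 0.0472), all by edgeR and each with an adjusted p = 0.973. The median of the 8 genes was then -0.78, with all 8 lower. With 1 library left out, Oit3 ran from -0.84 without resistant replicate 2 to -0.19 without resistant replicate 1, and Gpr182 from -1.44 to -0.76. Without sensitive replicate 1, 1 of the 8 (Gpr182, log2 fold change -1.38, unadjusted p = 0.0353, adjusted p = 0.849 by edgeR) had an unadjusted p under 0.05, where 3.76% of all genes did. When limma-voom gave each library a weight by its own scatter, Stab2 at -1.30 (unadjusted p = 0.0196, adjusted p = 0.458) and Clec4g at -1.32 (unadjusted p = 0.0431, adjusted p = 0.510) had an unadjusted p under 0.05, where 9.59% of all genes did. Stab2, Dnase1l3, Gpr182 and Oit3 had a negative fold change under all 16 alternatives. No adjusted p of the 8 genes was under 0.05 in any of them.

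Apart from the shares of summed CPM, the levels of the 8 genes were compared with each other on the deposited FPKM scale. This scale divides the fragments counted for a gene by its length as well as by the library total. The mean over the 6 libraries was 114 FPKM for Mrc1, 56.6 for Stab1, 37.1 for Lyve1, 10.2 for Stab2, 3.14 for Oit3, 2.18 for Dnase1l3, 1.159 for Clec4g and 0.761 for Gpr182. The ranges of all neighbours in this order overlapped. Mrc1 was above Stab1, and Dnase1l3 above Clec4g, in 6 of 6 libraries. Stab1 exceeded Lyve1 in 5 libraries, Stab2 exceeded Oit3 in 5, Oit3 exceeded Dnase1l3 in 5, and Lyve1 over Stab2 and Clec4g over Gpr182 held in 4. The ratio of Stab2 to Stab1, both stabilins, was 0.247, 0.211 and 0.195 in the sensitive and 0.284, 0.062 and 0.0821 in the resistant libraries on the FPKM scale. It was lowest in resistant replicates 2 and 3 and highest in resistant replicate 1. The ratio of Dnase1l3 to Stab2 ran from 0.176 to 0.222 in the sensitive and from 0.207 to 0.325 in the resistant libraries.

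Within the list, the most nearly parallel pair over the 6 libraries was Stab2 and Dnase1l3, followed by Stab2 and Clec4g. Parallel running was measured as the SD of the difference of log2 CPM of 2 genes, which was 0.304 for Stab2 and Dnase1l3 and 0.379 for Stab2 and Clec4g. It was 0.464 for Stab1 and Mrc1, 0.482 for Clec4g and Dnase1l3 and 2.42 for Lyve1 and Oit3, the least alike pair. This SD grows with the spread of the genes themselves. On their own, Stab2, Dnase1l3 and Clec4g had an SD of log2 CPM of 0.915, 0.678 and 1.04. Among 9455 or 9456 genes with a mean log2 CPM of at least 3, the gene most parallel to Stab2 was C6 (SD of the difference 0.122), followed by Pde4b (0.242). Pde4b (0.21) and Slc5a3 (0.24) were the nearest to Clec4g, and Catsperg1 (0.192) and Lacc1 (0.233) to Dnase1l3. Lpar6 (0.0572) and Cd22 (0.152) were the nearest to Mrc1, whose own SD was 0.584, and Rnf144b (0.0594) and Pla2g7 (0.0774) to Stab1, with an own SD of 0.227. Arsg (0.159) and Ndrg1 (0.197) were the nearest to Oit3 (own SD 0.492), and Sult1a1 (0.194) and Mrps6 (0.221) to Gpr182 (own SD 0.769). Cxcl1 (0.704) and Hspa1b (0.807) were the nearest to Lyve1, whose own SD was 2.15. These are descriptions over 6 libraries that share depth and the make-up of the cell preparation.

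**Figure D3:**
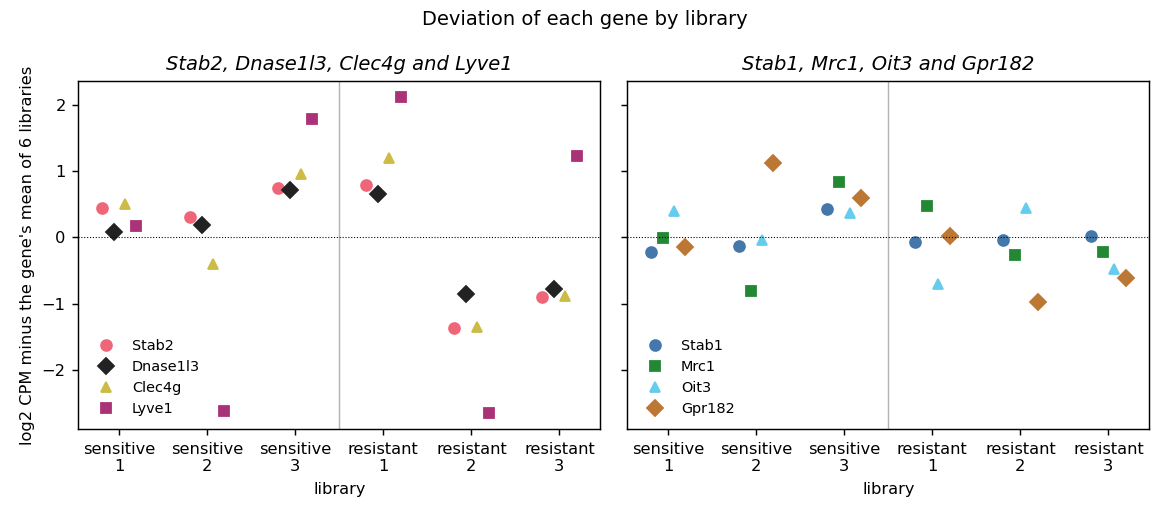
Log2 CPM of each gene minus its mean over the 6 libraries (y axis), by library (x axis), with Stab2, Dnase1l3, Clec4g and Lyve1 in the left panel and Stab1, Mrc1, Oit3 and Gpr182 in the right. Stab2 lies at 0.79 in resistant replicate 1 and at -1.37 and -0.91 in replicates 2 and 3, with Dnase1l3 and Clec4g on the same side of 0 in each of the 3.

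Other genes of sinusoidal endothelium had fold changes in both directions. Of 18 genes, among them Fcgr2b, Gata4, Maf and Clec1b, 17 were tested, and 7 were higher and 10 lower in the resistant group with a median log2 fold change of -0.19, which was -0.0082 without resistant replicate 2, -0.056 and -0.077 without sensitive replicates 3 and 1, and -0.37 without sensitive replicate 2. None had an adjusted p under 0.05, and 2 had an unadjusted p under 0.05, where 3.08% of all genes did. These were Clec1b (log2 fold change -0.97, unadjusted p = 0.0467, adjusted p = 0.940 by edgeR) and Tspan7 (-0.94, unadjusted p = 0.0495, adjusted p = 0.940), the latter named after its value was seen. Clec1b, a C-type lectin receptor that Kupffer cells also express, had 214, 527 and 206 CPM in the sensitive and 194, 140.2 and 149 CPM in the resistant libraries. Gata4, the transcription factor that specifies sinusoidal endothelium, had 17.5, 5.32 and 18.4 against 16.1, 10.2 and 24.5 CPM, which overlapped. Maf, a transcription factor of sinusoidal endothelium and macrophages, had 160 to 332 CPM in the sensitive and 234 to 318 CPM in the resistant libraries. Fcgr2b, the inhibitory Fc receptor by which LSECs take up immune complexes, had 33.9 to 56.3 CPM in the sensitive and 23.6 to 68.6 CPM in the resistant libraries.

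Genes of the pan-endothelial list had mostly negative fold changes. Of 18 tested, 17 were lower and 1 higher, with a median log2 fold change of -1.01. An unadjusted p under 0.05 was found for 6 (Kdr, Tek, Erg, Emcn, Egfl7 and Vwf, named after their values were seen). Over all genes 3.08% had one, and none of the 18 had an adjusted p under 0.05 by edgeR. By DESeq2, 1 of the 18 had an adjusted p under 0.05, where 24 of all genes did. With 1 library left out, 13 to 18 of the 18 were lower and 4 to 9 had an unadjusted p under 0.05. The weakest pattern was without resistant replicate 2, with 5 higher, 13 lower and a median of -0.72, and the highest count of p under 0.05 was without resistant replicate 1. Over all genes, 245 of 16213 had such a p without resistant replicate 2, and 3.91% did without resistant replicate 1. Their summed CPM was lowest in resistant replicate 2, at 91.8, and the groups overlapped. Pecam1, an adhesion molecule of endothelial junctions, had 64.2, 37.9 and 92.5 CPM in the sensitive and 47.4, 8.99 and 45.9 CPM in the resistant libraries.

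A list of 26 genes of uptake and lysosomal handling also held other scavenger and endocytic receptors. Of the 26 genes, 22 were higher and 4 lower, with a median log2 fold change of 0.29 and 0 with an adjusted or an unadjusted p under 0.05. Without resistant replicate 2 there were 16 higher and 10 lower (median 0.15). Without sensitive replicate 2 there were 20 and 6 (median 0.13), and 2 had an unadjusted p under 0.05, where 632 of all 15965 genes did. Their summed CPM was 31420 to 49920 in the sensitive and 31080 to 48660 in the resistant libraries, and cathepsin B (Ctsb), a lysosomal protease, had 13500 to 17490 against 13300 to 19330 CPM. Of the 18 macrophage and Kupffer cell genes 7 were higher and 11 lower, with a median of -0.33, and 1 had an unadjusted p under 0.05, where 3.08% of all genes did. It was Timd4, the receptor for phosphatidylserine (-1.70, unadjusted p = 0.0371, adjusted p = 0.940 by edgeR, named after its value was seen). The count of macrophage genes with such a p was 0 to 3 with 1 library left out. It was highest without sensitive replicate 3, where 1056 of all 16169 genes had one. Their median was -0.16 without sensitive replicate 2 or 3 and -0.20 without resistant replicate 3. Adgre1, which encodes the macrophage marker F4/80, had 140.1 to 543 CPM in the sensitive and 412 to 574 CPM in the resistant libraries.

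Genes of other cells that the preparation could hold were counted in the same way. All 9 hepatocyte genes tested were higher (median log2 fold change 1.10) and all 8 neutrophil genes tested were lower (median -2.01). Of these, 2 and 1 had an unadjusted p under 0.05, where 3.08% of all genes did, and none had an adjusted p under 0.05. Several hepatocyte genes had few counts. With at least 10 counts in every library, 4 hepatocyte genes were tested, all higher (median 0.74), and 6 neutrophil genes, all lower (median -2.04). Of these, 0 and 1 had an unadjusted p under 0.05, where 413 of all 12824 genes did. Without sensitive replicate 3, 5 of the 8 neutrophil genes had an unadjusted p under 0.05, where 1056 of all 16169 genes tested did. Without sensitive replicate 2, resistant replicate 2 or resistant replicate 3, 0 did. There 632 of 15965, 245 of 16213 and 167 of 16187 genes did, respectively. The hepatocyte median was 0.43 without resistant replicate 2 (8 higher, 1 lower) and 1.66 without sensitive replicate 1. The summed neutrophil CPM ranged from 515 to 7565 in the sensitive and from 255 to 1820 in the resistant libraries, and the summed hepatocyte CPM from 30.3 to 93.8 and from 59.1 to 160.3. Of 8 stellate cell genes 6 were higher and 2 lower (median 0.29), but without resistant replicate 2 there were 4 higher and 5 lower (median -0.16), and without sensitive replicate 3 there were 4 and 4 (median 0.10). Of 3 lymphatic endothelial genes tested (Pdpn, Flt4 and Reln) 2 were higher and 1 lower (median 0.23). Flt4 was also on the sinusoidal list and Reln on the stellate list. The median turned to -0.082 without sensitive replicate 3 and -0.079 without resistant replicate 3. Each of these fits tested 4 genes of the list, so the medians are not over the same genes. The part of any of these cell types in the values of the 8 genes was not tested.

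**Figure D4:**
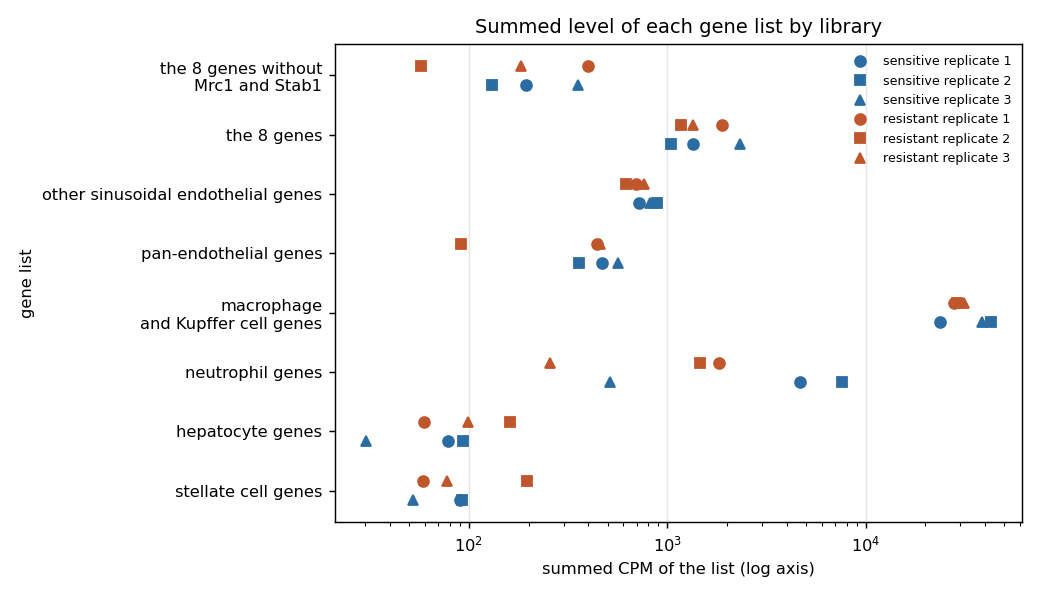
Summed CPM on a log axis (x axis) of the 8 genes, with and without Mrc1 and Stab1, and of 6 other gene lists (y axis), with a point for each sensitive and resistant library. The macrophage and Kupffer cell list lies between 23750 and 42860 CPM in all 6 libraries, far above the pan-endothelial list at 91.8 to 562.9 CPM.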

How the data were processed

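The 6 libraries were grouped and numbered from their titles, which name mouse LSECs. The design text of the series instead describes LX-2 cells, a human stellate cell line, and the sample labels were followed. According to the submitters' processing notes, HISAT2 2.0.5, featureCounts 1.5.0-p3, DESeq2 1.16.1 and edgeR were used with the mm9 build. The authors deposited whole-number counts per gene, not normalized, and FPKM values computed by the authors from these counts. A further table of the authors' own comparison (group means, fold changes and p-values) was not used. The labels name ribosomal RNA depletion and the study's methods also poly(A) selection, and molecular identifiers are not mentioned, so limits of detection (3 counts) cover counting error only. Positions are those of GRCm38 (GENCODE M21), matched by Ensembl identifier for all 8 genes.

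Groups were compared with edgeR 4.0.16 under R 4.3.3 (filterByExpr, TMM, robust quasi-likelihood test, two-sided, no covariate, Benjamini-Hochberg adjustment over 15474 genes, threshold 0.05, prior count 2 for log2 CPM). Standard errors are those implied by the F statistic. Alternatives used DESeq2 1.42.0, limma 3.58.1 (also on log2 of FPKM plus 1), other scaling and filters, and each library left out in turn. No 2 libraries of a group agreed within sampling noise (chi-square per gene of at least 33.6).

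The 8 genes and the other lists were chosen with earlier results of these data known. The genes named are the 8, the 2 genes running most parallel to each (mean log2 CPM of at least 3), and, from the other lists, up to 3 genes of the highest mean CPM with Mcam, Pecam1, Cdh5, Adgre1, Clec4f, Gata4 and Fcgr2b. Others are marked as named after their values were seen.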

Additional observations from a re-analysis of the deposited data

How the results depend on the processing

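No member had an adjusted p under 0.05 under any alternative. Over all genes, the count with an adjusted p under 0.05 was 0 by edgeR (476 at an unadjusted p under 0.05), 2 with no filter (2036), 24 by DESeq2 (732) and 1 by limma-voom with sample weights (1484). Members with an unadjusted p under 0.05 numbered 0, but 1 with at least 10 counts in every library, 1 by DESeq2 and 2 with sample weights. Over all genes, 413 of 12824, 732 of 15448 and 1484 of 15474 had one in these 3 settings, respectively. With 1 library left out, 0 to 4 members had one, the highest count without resistant replicate 1, where 628 of all 16049 genes did. Members not overlapping between the groups also numbered 0 to 4 with 1 library left out. The highest count was without resistant replicate 1, where 11.2% of all genes did not overlap and were lower in the resistant group. That share was not computed for the other left-out libraries. Of 128 alternative fold changes of the 8 genes, 115 kept their direction and 13 reversed. With 1 library left out, Stab1 ran from -0.21 to 0.15, Lyve1 from -0.33 to 1.83, Clec4g from -1.64 to 0.056 and Mrc1 from -0.44 to 0.41. Stab1 was 0.046 with sample weights and 0.0070 on log2 of FPKM plus 1, Lyve1 was -0.50 with sample weights, and Mrc1 was 0.00057 by limma-voom and 0.060 on log2 of FPKM plus 1. The causes were not tested. The labels do not say whether replicate numbers pair the libraries. The deviations of same-numbered libraries correlated at -0.00093, 0.034 and 0.194, and 3 of 6 libraries correlated best with their own number. With so few libraries these values cannot settle whether the numbers are pairs. With the replicate number as a block (replicate block), 0 genes had an adjusted p under 0.05 and 467 an unadjusted one, the median of the 8 genes was -0.58, and Mrc1 was 0.0067. Under the block 6 of 8 neutrophil genes had an unadjusted p under 0.05, against 1 without it. The log2 ratio of summed CPM of the 8 genes ran from -0.33 to 0.30 over its alternatives, within the spread of libraries (SD 0.49). The sum without both Mrc1 and Stab1 was added after seeing the data. Gpr182 and Clec4g, at 16 to 118 counts, carry the largest counting error.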
